A study of Mus musculus with 5 samples.

Results

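Antiviral enzymes that rewrite nucleotides or RNA were followed in mouse peritoneal macrophages, phagocytes that live in the abdominal cavity. The group holds 6 genes taken by name from the 30478 genes of the deposited table: Rsad2, Cmpk2, Isg20, Pnpt1, Apobec3 and Apobec1. The mutant group comprised 2 libraries from 8-week-old females homozygous for both Samhd1 del/del and cGAS-GFP ki/ki, and the wt group comprised 3 libraries from a 13-week-old male, a 13-week-old female and a 9-week-old female. All animals were C57BL/6, cells were sorted by flow cytometry, and no treatment is given in the labels. The deletion and the knock-in occur together, so a difference cannot be assigned to either. Nor can it be separated from age, since every mutant was younger than every wt animal. The labels do not describe how the cGAS-GFP allele was built or which part of Samhd1 was removed. The 3 wt libraries differ in sex or age and so come from different animals. For the 2 mutant libraries the labels do not say whether the animals were separate. The p-values therefore measure only the spread among these libraries, which may be technical in the mutant and includes sex and age in wt.

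SAMHD1 destroys dNTPs and cGAS senses cytosolic DNA. The series title concerns loss of SAMHD1, activation of MDA5, which senses double-stranded RNA, and the part that cGAS and STING play in it. Type I interferon, made after such sensing, acts through STAT and IRF factors that bind short response elements near gene starts and switch on enzymes that deprive viruses of usable nucleic acid. Viperin, the Rsad2 product, turns CTP into a chain-terminating analogue, and the mitochondrial kinase encoded by Cmpk2 phosphorylates CMP and UMP on the path towards CTP. The exonuclease ISG20 degrades single-stranded RNA. PNPT1 degrades RNA inside mitochondria, where it limits the build-up of double-stranded RNA that MDA5 can sense. APOBEC3 deaminates cytidines in the DNA of retroviruses, and APOBEC1 edits cytidines in cellular mRNA, first described for the apolipoprotein B transcript.

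The bases before the start of Rsad2 and Cmpk2, which lie next to each other, and of Apobec3 are shown because they differ in whether they hold the core of the interferon-stimulated response element. The core was searched on both strands as TTTC, NN for any bases, and TTTC in 1 unbroken run, in the 250 bases before each start annotated by RefSeq on GRCm38.p6, and matches are in capitals. Each sequence is printed on its gene's own strand. Rsad2 lies on the minus strand and its window is chr12:26456453-26456702. For Cmpk2 the window is chr12:26468965-26469214 on the plus strand. For the upstream one of the Apobec3 starts it is chr15:79892158-79892407 on the plus strand. GENCODE M21, another annotation, starts Apobec3 at 79891659, so that window lies inside the gene as drawn there. It starts Cmpk2 at 26469204, within the last bases of the Cmpk2 window.
Rsad2: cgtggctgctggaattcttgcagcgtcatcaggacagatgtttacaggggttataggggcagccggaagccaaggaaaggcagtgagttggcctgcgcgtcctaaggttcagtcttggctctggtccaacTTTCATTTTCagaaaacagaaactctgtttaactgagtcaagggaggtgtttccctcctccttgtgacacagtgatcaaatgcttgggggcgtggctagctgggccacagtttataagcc
Cmpk2: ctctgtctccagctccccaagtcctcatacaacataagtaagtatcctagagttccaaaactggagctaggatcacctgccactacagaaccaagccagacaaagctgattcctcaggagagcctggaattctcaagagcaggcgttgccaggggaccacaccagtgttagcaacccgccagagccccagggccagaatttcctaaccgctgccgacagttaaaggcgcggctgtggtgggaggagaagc
Apobec3: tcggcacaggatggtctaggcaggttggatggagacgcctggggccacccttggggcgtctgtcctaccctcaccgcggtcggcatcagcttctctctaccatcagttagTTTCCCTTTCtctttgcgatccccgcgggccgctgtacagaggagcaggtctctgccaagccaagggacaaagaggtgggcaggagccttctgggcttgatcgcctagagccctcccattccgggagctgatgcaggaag
The Rsad2 match begins at position -120 from the start and the Apobec3 match at -140. No match was found in the windows of Cmpk2, Isg20, Pnpt1, Apobec1 or the downstream Apobec3 start. Counted by window, since a gene can have several starts, 2 of the 9 windows of the 6 enzymes held the core, and 2.98% of all 32851 windows did. Counted by gene instead, 8 of the 23 reference interferon-stimulated genes with a window and 2 of the 6 enzymes held it in at least 1 window. The share by gene over all genes was not computed. A further motif, the gamma-activated site searched as TTCNNNGAA, occurred in 1 of the 9 windows, at -73 before an Isg20 start, and in 7.02% of all windows. A match is a run of letters and does not show that a factor was bound.

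Depth was 28517346 and 27282354 reads in mutants 1 and 2 and 30026622 to 33119434 in wt. Samhd1 had 1279 and 1431 normalized counts in mutant cells versus 16780 to 18270 in wt, and Cgas 184 and 85.05 versus 967.7 to 1211. The macrophage markers were all present (8 of 8 in every library), while the large peritoneal macrophage genes Gata6 and Timd4 had 0 reads throughout. Of the 5 genes on that list, Cd5l had 6336 and 9832 in mutant cells versus 7192 to 13250 in wt and was not called. Icam2 had 192.8 and 147.8 in mutant cells versus 305.1 to 367.2 in wt and was called lower (limma adjusted p = 0.0184). Selp had 7.829 and 4.253 in mutant cells versus 0.829 to 2.692 in wt and was not tested. Other values differed between the genotypes as well. The 18S ribosomal RNA gene Rn18s took 5.28% and 4.04% of mutant reads against 0.599% to 1.64% of wt reads. The 8 B cell markers were above 3 reads in every library, and their summed normalized count was 5598 and 6602 in the mutant libraries versus 2637 to 3299 in wt. The summed macrophage markers stood at 448500 and 734800 in mutant cells versus 257100 to 301200 in wt.

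Transcripts of 4 of the 6 enzymes were lower in mutant macrophages, and 0 were higher. Rsad2, Cmpk2 and Isg20 stood at 17.0%, 19.6% and 18.8% of their wt means, and Pnpt1 at 61.3%. The deaminase genes differed least, with Apobec3 at 82.4% and Apobec1 at 91.6% of wt, and neither passed the threshold. Across all 14977 genes tested by limma on log2(normalized count + 2), 4.89% were lower in the mutant at an adjusted p under 0.05 and 3.71% were higher. At least 4-fold lower and called were 3 of the 6 enzymes and 0.748% of all genes. The 6 genes had a median log2 fold change of -1.52, against 0.00033 over all genes tested. In these cell populations, fewer cells of a type and less RNA per cell cannot be told apart.

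**Figure D1:**
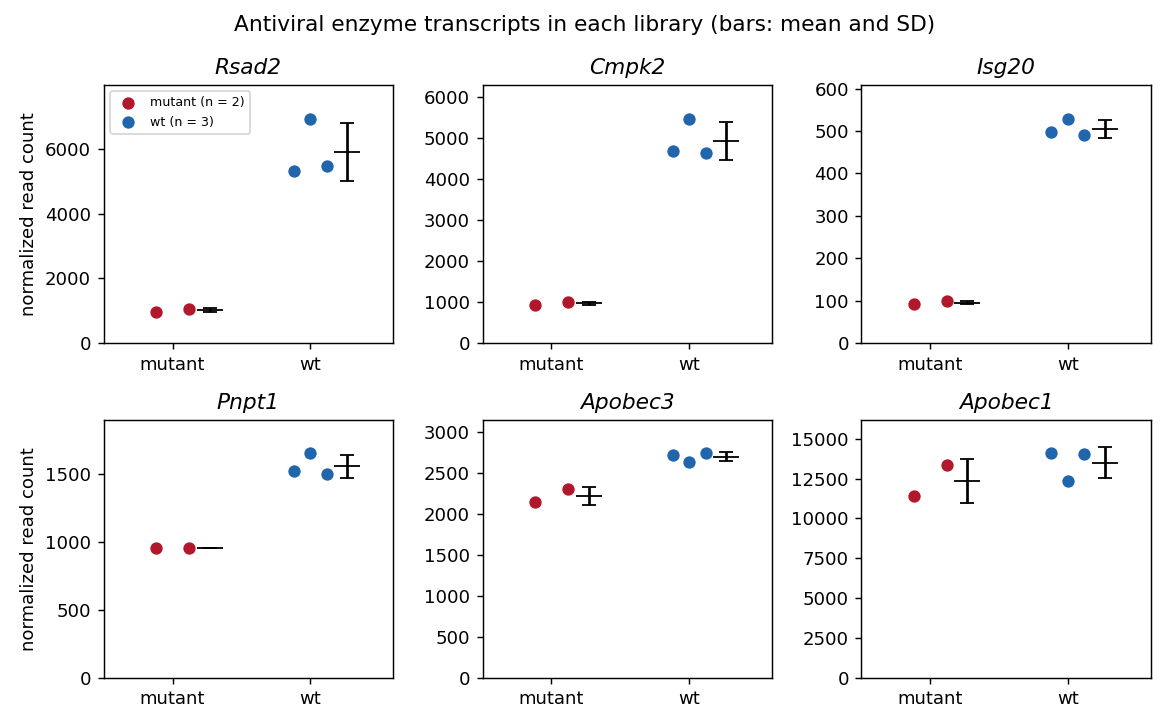
Normalized read count (vertical axis, from 0) of each antiviral enzyme in every library, with mutant points on the left and wt points on the right of each panel and bars for the mean and SD. Mutant points lie below all wt points for Rsad2, Cmpk2, Isg20, Pnpt1 and Apobec3, while for Apobec1 mutant 1 lies below them and mutant 2 among them.

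Among the nucleotide enzymes, Rsad2 (GENCODE M21 on GRCm38, chromosome 12, 26442746 to 26456452, minus strand) gave 965.9 and 1050 normalized counts for mutants 1 and 2. For wt 1 to 3 it gave 5344, 6954 and 5482. The groups did not overlap, and wt 2 was the highest library. Means were 1008 ± 59.8 in the mutant (SD, n = 2) and 5926 ± 892 in wt (SD, n = 3). This was a 5.83-fold lower level, with a log2 fold change of -2.54 (95% interval -2.85 to -2.24, limma adjusted p = 0.00021). Only 59 of the 14977 genes had a log2 fold change this low or lower.

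Cmpk2 (chromosome 12, 26469204 to 26479837, plus strand) had 934.6 and 996.2 in mutant cells versus 4683, 5482 and 4639 in wt. Here too the groups were apart and wt 2 was highest. The mean of 965.4 ± 43.6 in the mutant stood against 4935 ± 475 in wt, a log2 fold change of -2.35 (95% interval -2.58 to -2.12, limma adjusted p = 0.000109). The gene starts 12751 bases from Rsad2 in the opposite orientation, with no protein-coding gene between them.

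The Rsad2 to Cmpk2 ratio of normalized counts was 1.03 and 1.05 in mutants 1 and 2 and 1.14, 1.27 and 1.18 in wt 1 to 3. Both mutants thus lay below all wt libraries, and the mean log2 ratio differed by -0.20, mutant minus wt. An exact two-sided permutation test gave p = 0.2, which is the smallest value 2 against 3 libraries allow.

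The neighbour of Rsad2 on its other side, the ubiquitin ligase gene Rnf144a, had 45.02 and 64.85 in mutant cells versus 162.5, 80.76 and 131.6 in wt. It did not pass (log2 -1.12, limma adjusted p = 0.0814) but was called by DESeq2 (adjusted p = 0.0137) and without mutant 2 (limma adjusted p = 0.0472). On the far side of Cmpk2, the developmental transcription factor gene Sox11 had at most 1 read in a library and was not tested.

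Of the nucleases, Isg20 (chromosome 7, 78913424 to 78920396, plus strand) had a fold change close to that of Cmpk2. Mutants 1 and 2 had 91.99 and 97.81 normalized counts, from 94 and 92 reads. Wt 1 to 3 had 497.4, 529.5 and 490.3, from 600, 590 and 529 reads. All mutant values were far below all wt values, and the spread within each group was small. Means were 94.9 ± 4.12 in the mutant and 505.7 ± 20.8 in wt, a 5.24-fold lower level (log2 -2.39, 95% interval -2.65 to -2.13, limma adjusted p = 0.000144). With the 9-week-old female as the only wt library the call was lost (log2 -2.35, limma adjusted p = 0.0647). The summed B cell markers given above were higher in the same mutant libraries, and their part in the Isg20 value was not tested. Most of that sum was Ighm, the antibody heavy chain gene, at 4753 and 6012 in mutant cells versus 2179 to 2838 in wt (limma adjusted p = 0.0105). Of the other 7 markers 0 were called, and 6 of them overlapped between the groups.

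Pnpt1 (chromosome 11, 29130744 to 29161828, plus strand) fell by less. It had 955.1 and 956.9 in mutant cells versus 1525, 1656 and 1500 in wt, so the groups were again apart. The mutant mean was 956 ± 1.23 and the wt mean 1560 ± 83.8, with a log2 fold change of -0.70 (95% interval -0.89 to -0.52, limma adjusted p = 0.00541). Without wt 1 the fold change was -0.72 and no longer called (limma adjusted p = 0.0532), and with the 9-week-old female as the only wt library it was -0.65 (limma adjusted p = 0.482).

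Genes flanking the nucleases that were tested did not pass by limma with all libraries. Aen, an exonuclease gene 2214 bases before Isg20, had 359.1 and 275.4 in mutant cells versus 426.1, 509.7 and 450.5 in wt (log2 -0.55, limma adjusted p = 0.0703). It was called by DESeq2 (adjusted p = 0.0243) and without mutant 1 (log2 -0.74, limma adjusted p = 0.00378). Ppp4r3b, a phosphatase subunit gene 11061 bases beyond Pnpt1, had 3271 and 3231 in mutant cells versus 3161, 3214 and 3124 in wt (log2 0.04, limma adjusted p = 0.701). Efemp1, on the other side of Pnpt1, had 0 reads in all libraries.

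Apobec3 (chromosome 15, 79891659 to 79915906, plus strand) had 2147 and 2302 normalized counts in the mutant libraries, with 2717, 2636 and 2741 in wt 1 to 3. Every mutant value lay below every wt value, as for 5 of the 6 enzymes and 26.9% of all genes tested. The means of 2224 ± 109 in the mutant and 2698 ± 55.3 in wt gave a log2 fold change of -0.28 (95% interval -0.44 to -0.11). It missed the threshold by limma (adjusted p = 0.0566), edgeR (adjusted p = 0.0576) and limma-voom (adjusted p = 0.0561) and passed by DESeq2 (adjusted p = 0.026). These alternatives called 4.47% (edgeR), 4.55% (limma-voom) and 8.73% (DESeq2) of all genes lower in the mutant. The log2 fold change was -0.23 without mutant 1 and -0.33 without mutant 2. A lone mutant library was there assumed to vary like the others. Without wt 1, wt 2 or wt 3 it was -0.27, -0.30 and -0.27 and not called (limma adjusted p = 0.204, 0.144 and 0.202). Apobec3 was called in 4 of 17 alternative fits. Beside it, the chromatin gene Cbx6 had 1510 and 1213 in mutant cells versus 1406, 1426 and 1461 in wt.

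On the opposite strand Apobec3 overlaps Cbx7, which had 444.3 and 611.3 in mutant cells versus 319.2, 269.2 and 294.8 in wt. The library kit marks strand, but the strand setting of counting was not given in the sources used here. Shared reads cannot be told apart. Cbx7 ran the other way from Apobec3, being higher in both mutants. The annotated transcript D730005E14Rik also overlaps Apobec3, but on the same strand, at 51.87 and 60.6 in mutant cells versus 36.48 to 46.35 in wt.

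Apobec1 (chromosome 6, 122577792 to 122602444, minus strand) was the most abundant of the enzymes per kilobase in both genotypes. Its normalized count was 11400 in mutant 1 and 13350 in mutant 2, with 14090, 12380 and 14050 in wt 1 to 3. The groups overlapped, since mutant 2 exceeded wt 2. Means of 12370 ± 1380 in the mutant and 13510 ± 974 in wt gave a log2 fold change of -0.13 (limma adjusted p = 0.425). The 95% interval of -0.37 to 0.12 leaves room for a modest difference in either direction.

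The growth factor gene Gdf3, which lies beside Apobec1, had 349.4 and 350.8 in mutant cells versus 385.5, 105.9 and 401.3 in wt, where wt 2 stood apart from the other libraries. The ratio of Apobec1 to Apobec3 was 5.31 and 5.80 in the mutants and 5.18, 4.70 and 5.13 in wt, higher in both mutants (exact two-sided permutation p = 0.2, the smallest possible).

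**Figure D2:**
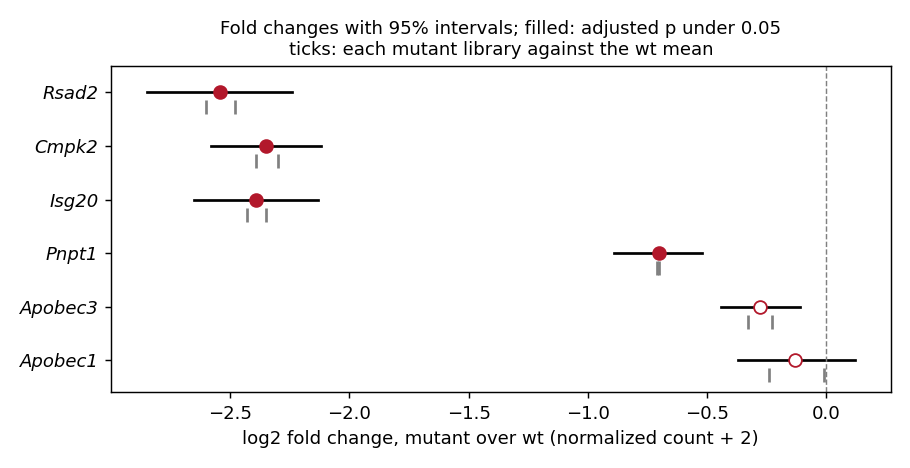
Log2 fold change of each antiviral enzyme, mutant over wt (horizontal axis), with its 95% interval from limma and grey ticks for each mutant library against the wt mean. Rsad2, Isg20 and Cmpk2 cluster between -2.54 and -2.35, Pnpt1 stands at -0.70, and the interval of Apobec1 spans 0.

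Each mutant library by itself showed the same order. Relative to the wt mean, Rsad2 stood at -2.60 in mutant 1 and -2.48 in mutant 2 on the log2 scale. Cmpk2 stood at -2.39 and -2.30, and Isg20 at -2.43 and -2.35. Pnpt1 was nearly the same in both, at -0.71 and -0.70. Apobec3 stood at -0.33 and -0.23, and Apobec1 at -0.24 and -0.01. Mutant 1 was therefore the lower library for each of the 6 enzymes, with almost no gap for Pnpt1. Over the wt libraries Rsad2 varied most (coefficient of variation 15.1%) and Apobec3 least (2.05%).

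Per kilobase of annotated exon, the enzymes ran in a different order in each genotype. In the mutant Apobec1 had 4580 normalized counts per kilobase, Pnpt1 272, Apobec3 235, Rsad2 233, Cmpk2 232 and Isg20 51.0. The libraries of Apobec3 (227 and 243), Rsad2 (223 and 242) and Cmpk2 (224 and 239) overlapped, so these 3 have no order in the mutant. In wt the order was Apobec1 at 5000, Rsad2 at 1370, Cmpk2 at 1190, Pnpt1 at 444, Apobec3 at 285 and Isg20 at 272. Rsad2 (1230 to 1600) and Cmpk2 (1110 to 1320) overlapped in wt, as did Apobec3 (279 to 290) and Isg20 (264 to 285). The length covers all annotated exons of a gene, which reaches 9454 bases for Apobec3, so the level of a single transcript form can be higher than shown.

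**Figure D3:**
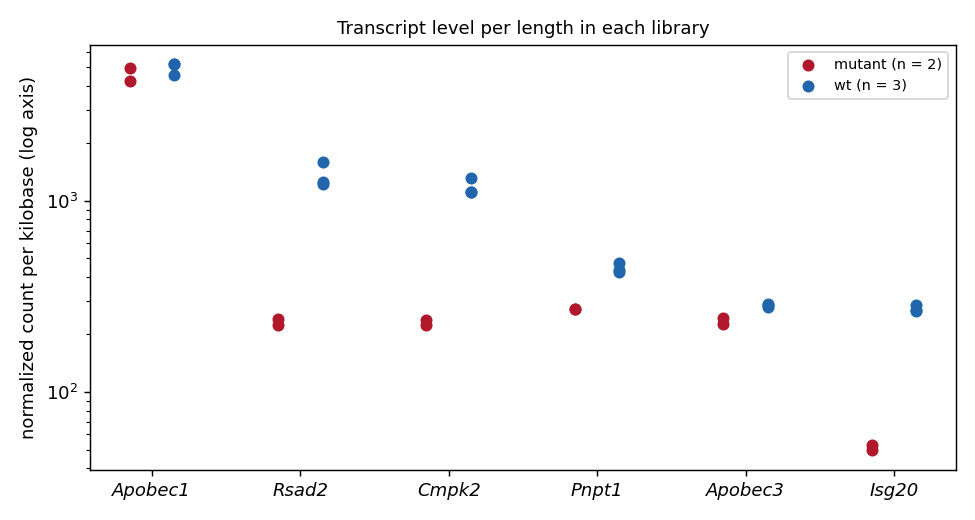
Normalized count per kilobase of annotated exon (log axis) for each antiviral enzyme, with the 2 mutant libraries left of the 3 wt libraries. Rsad2 and Cmpk2 lie well above Pnpt1 and Apobec3 in wt and level with Apobec3 in the mutant, and Apobec1 is highest in both genotypes.

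Other interferon-stimulated genes provided a scale for these changes. Of 33 reference genes, 32 were lower in the mutant and 0 higher, with a median log2 fold change of -1.72. With the 9-week-old female as the only wt library 11 of them were called lower. Rsad2 fell by more than all but 10 of them, and Cmpk2 and Isg20 by more than all but 12. Oasl2, a gene related to the oligoadenylate synthetases, stood close to these enzymes at -2.42, while the transcription factor gene Irf7 fell further (-3.80). Pnpt1 lay between Irf9 (-0.53) and the other 32. Cxcl10, a chemokine gene, had 127.2 and 250.9 in mutant cells versus 424.4, 577 and 360.6 in wt (log2 -1.31, limma adjusted p = 0.0564). It was called by DESeq2 (adjusted p = 0.00195). The log2 fold change of Cxcl10 was -0.82 without mutant 1 and -1.79 without mutant 2. Without wt 1, wt 2 or wt 3 Cxcl10 was not called (limma adjusted p = 0.174, 0.163 and 0.135). Apobec3 and Apobec1 had a smaller difference than all 33.

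In the lists of related enzymes, 3 of 63 tested genes were lower and 0 higher, or 4.76% lower, close to the 4.89% of all genes. Of 14 genes for CTP supply and pyrimidine nucleotide kinases, 0 passed limma, edgeR, limma-voom or DESeq2, while an unadjusted limma p under 0.05 was reached by 5 lower and 0 higher genes. Of all genes tested, 17.7% were lower and 13.9% higher at that unadjusted threshold. Cmpk1, which encodes the UMP-CMP kinase of the cytosol, had 3881 and 3860 in mutant cells versus 4181, 4266 and 3941 in wt. The log2 difference of -0.09 did not pass (limma adjusted p = 0.384), beside -2.35 for the mitochondrial Cmpk2. Whether these 2 fold changes differ was not tested. Uck2, a uridine-cytidine kinase, had -0.26 (limma adjusted p = 0.379). Ctps, which makes CTP from UTP and was chosen after its values were seen, had 239.8 in mutant 1 and 66.98 in mutant 2, versus 325, 515.1 and 343 in wt. The mutants thus differed widely from each other, and it did not pass (log2 -1.59, limma adjusted p = 0.0989). The list median was -0.26, at -0.09 in mutant 1 and -0.43 in mutant 2.

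Of 10 tested deaminases and Apobec1 cofactors, 2 were lower and 0 higher. Adar, which converts adenosine to inosine in double-stranded RNA, had 2772 and 2587 in mutant cells versus 5275, 5432 and 5723 in wt (log2 -1.03, limma adjusted p = 0.000775). With the 9-week-old female as the only wt library Adar was not called (limma adjusted p = 0.158). Celf2, an RNA-binding protein reported to bind APOBEC1, had a log2 fold change of -0.30 (limma adjusted p = 0.0455). It was lost by edgeR (adjusted p = 0.0517), without wt 1, wt 2, wt 3 or mutant 2 (limma adjusted p = 0.179, 0.126, 0.189 and 0.0619) and in 4 further alternatives. Rbm47, a cofactor needed for APOBEC1 editing, had 5121 and 4977 in mutant cells versus 4523, 4773 and 4809 in wt and did not pass (log2 0.10, limma adjusted p = 0.323). Khsrp, a splicing regulator, had -0.28 (limma adjusted p = 0.119). Leaving out 1 library gave -0.44 (without mutant 1) to -0.13 for Khsrp.

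Among 15 exonucleases related to Isg20, 1 was lower and 0 higher. This was Trex1, the cytosolic DNA exonuclease, at 1228 and 1526 in mutant cells versus 2926, 2984 and 2962 in wt (log2 -1.11, limma adjusted p = 0.00257), and it was not called with the 9-week-old wt alone (limma adjusted p = 0.221). The cytoplasmic and nuclear RNA exonuclease genes Xrn1 (-0.06) and Xrn2 (-0.21) did not pass (limma adjusted p = 0.595 and 0.178), though Xrn2 was called without mutant 2 (limma adjusted p = 0.0263). Genes of mitochondrial RNA turnover, where PNPT1 acts, and of the RNA exosome gave 0 of 24 calls by limma, edgeR and limma-voom and 2 by DESeq2. At an unadjusted limma p under 0.05, 8 of them were lower and 0 were higher, beside 17.7% and 13.9% of all genes. Lrpprc, which stabilizes mitochondrial mRNA, and the exosome helicase gene Skiv2l both had -0.06 (limma adjusted p = 0.702 and 0.509). Supv3l1, the helicase that acts with PNPT1 and was chosen after its values were seen, had 304.3 and 294.5 in mutant cells versus 349.8, 341.9 and 355.9 in wt (log2 -0.22, limma adjusted p = 0.172). All 24 fold changes of this list were negative, against 20 with upper-quartile factors and 21 without mutant 2, with a median of -0.24, at -0.12 in mutant 1 and -0.35 in mutant 2.

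**Figure D4:**
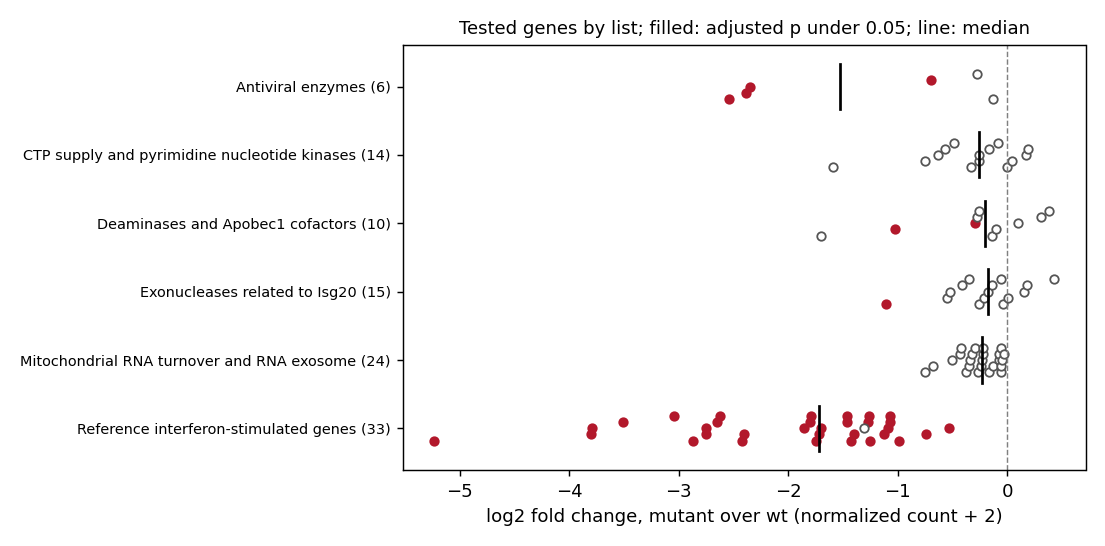
Log2 fold change, mutant over wt (horizontal axis), of every tested gene in the antiviral enzyme group and in 5 comparison lists, filled where the limma adjusted p was under 0.05, with a line at each median. Medians of the 4 related enzyme lists lie between -0.26 and -0.18, against -1.52 for the antiviral enzymes and -1.72 for the reference interferon-stimulated genes.

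Genes whose profile over the 5 libraries was most like each enzyme were sought among 9236 genes, by Euclidean distance of log2 values from the wt mean. The nearest to Rsad2 was Tnfsf10, which encodes the death ligand TRAIL, at a distance of 0.125. It had 60.67 and 61.66 in mutant cells versus 315, 410.1 and 346.7 in wt, with wt 2 highest as for Rsad2. Phf11d (0.268) and Cmpk2 (0.299) followed. Cmpk2 and Isg20 were each other's nearest gene, at a distance of 0.124, although they lie on different chromosomes. Both also had Oasl2 and Tnfsf10 among their next nearest.

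Near Pnpt1 stood the calcium-binding protein gene Gca (0.0718), the proteasome activator subunit gene Psme1 (0.0824) and the inhibitory receptor gene Pilra (0.0842). Psme1 had 3029 and 3056 in mutant cells versus 4894, 4968 and 4698 in wt. For Apobec3 the nearest were the cation channel gene Trpm2 (0.0421), the receptor gene Milr1 (0.0464) and the splicing factor gene Smu1 (0.054). With all libraries limma called none of them, with an adjusted p of 0.0869 for Trpm2, 0.0517 for Milr1 and 0.0508 for Smu1. Milr1 and Smu1, like Apobec3, were called by DESeq2 (adjusted p = 0.0186 and 0.0189). Leaving out 1 library gave log2 fold changes of -0.32 to -0.24 for Milr1 and -0.29 to -0.26 for Smu1. For Apobec1 they were Tgfbi (0.0543), Ddx28 (0.0576) and Lzts2 (0.0581), also not called. Short distances are common for genes that change little, so they do not single out these genes.

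In a separate fit, the authors' deposited table called 5 of the 6 enzymes lower in the mutant, against 3.66% of all its genes. Its log2 fold changes run wt over mutant, so positive values mean lower in the mutant. In the authors' deposited table Rsad2 stood at 1.98, Cmpk2 at 1.95 and Isg20 at 1.79, each with a smaller size than the limma values. Pnpt1 stood at 0.681 and Apobec3 at 0.291 in the authors' deposited table, both called (adjusted p = 0.000121 and 0.0112), and Apobec1 at 0.102 was not (adjusted p = 0.733). The mean over libraries in the authors' deposited table was above 0 for all 3266 genes with 0 reads in these 5 libraries, so that fit drew on libraries not analysed here.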

How the data were processed

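mRNA of flow-sorted peritoneal macrophages was sequenced from strand-marking libraries, per the labels. The submitters' processing notes name STAR, Subread with featureCounts, DESeq 1.6.1 and build mm10. Strand setting, annotation release and the method of p-value adjustment were not given in the sources used here. Judged from its values, the signal deposited for a library is reads per gene scaled by 1 size factor: 100% came out as whole reads within 0.001 reads. The authors' deposited table also gives log2 fold changes and each p-value, per the file headers, and gene lengths. A table of 2185 rows holds only rows of the main one and was not used. Gene positions come from GENCODE M21 on GRCm38, matched by identifier, because the deposited coordinates differ from that build. Genes on chromosomes 1 to 19 were analysed here. Upstream sequences come from RefSeq on GRCm38.p6, which held all 6 enzymes.

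Genes at 10 or more normalized counts in at least 2 libraries were fitted by limma 3.58.1 (R 4.3.3) with its trend option, on log2(normalized count + 2). The added 2 understates fold changes of genes with few reads. Tests were two-sided, with Benjamini-Hochberg adjustment over all genes tested and a threshold of 0.05. Alternatives on recovered reads were edgeR 4.0.16 with TMM, DESeq2 1.42.0 and limma-voom. Fits were tested on simulated data. Depth was 27282354 to 33119434 reads, and 3 reads, the limit that a count of 0 allows, come to 0.0906 to 0.11 CPM for counting error only. Replicates differed by more than sampling noise. The mean chi-square per gene was 61.6 between the 2 mutant libraries and 14.3 to 26.0 between pairs of wt libraries. Named genes were the 6 enzymes, the targeted Samhd1 and Cgas, up to 4 called genes of lowest adjusted p and 2 abundant uncalled genes in each list, flanking protein-coding genes and the 3 genes nearest in profile of at least 5 CPM, leaving out predicted genes. Values of some genes that the rule names are not reported here. Members and lists were chosen with earlier results of these data known.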

Additional observations from a re-analysis of the deposited data

How the results depend on the processing

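Every enzyme kept a negative log2 fold change under all 17 alternatives, and Rsad2 and Cmpk2 stayed called in each (-2.61 to -2.42 and -2.39 to -2.26). With only the 9-week-old female wt library against the mutants, 2 enzymes were called, 43 genes were lower and 2 higher, Isg20 (-2.35) and Pnpt1 (-0.65) were lost, and 0 related enzymes were lower. Same-numbered libraries share only a number in the labels. Their deviations from the group means correlated at -0.228 and -0.362. This cannot decide whether they were handled together, since with 2 mutant libraries those deviations mirror each other. With the replicate block, 75 genes were lower and 6 higher, 0 related enzymes and 19 of 33 reference interferon-stimulated genes were lower, and Pnpt1 (-0.73, limma adjusted p = 0.192) was not called. DESeq2 called 1308 genes lower and 1121 higher, 7 related enzymes lower and 2 higher, and Apobec3 (-0.27). Apobec3 was also called with 50 or more normalized counts in 2 libraries (-0.28). That filter, limma-voom, upper-quartile factors and the robust prior each called 1 related enzyme higher. Leaving out 1 library gave 3 to 5 enzymes lower, 175 (without wt 1) to 2928 (without mutant 1) genes lower and 29 to 2080 higher, and 2 to 29 related enzymes lower and 0 to 3 higher. It gave -0.73 to -0.66 for Pnpt1 and -0.33 to -0.23 for Apobec3. Where a lone library is left in a group, it is assumed to vary like those of the other group. Among genes not called, the sign turned for Cbx6 without mutant 2 (0.08, range over libraries left out -0.24 to 0.08), Gdf3 without wt 2 (-0.17, range -0.17 to 0.78) and with the 9-week-old wt alone (-0.20), Tgfbi without mutant 1 (0.02, range -0.23 to 0.02), Lrpprc without mutant 2 (0.07, range -0.19 to 0.07) and, with upper-quartile factors, Lrpprc (0.00) and Xrn1 (0.00). The cause was not tested in any of these cases, beyond the fewer libraries.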
